A study of Solanum lycopersicum with 14 samples.

Results

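The genes described here are those of the cell cycle and of DNA replication in tomato fruit: cyclins, cyclin-dependent kinases (CDKs) and their inhibitors, the E2F and retinoblastoma regulators, the proteins that license and copy DNA, Aurora kinases, and histones H2A and H2B. They were chosen by the symbol of the closest Arabidopsis gene that the deposited tables give for each tomato gene, without use of any expression value other than a minimum of reads. The symbols matched 103 genes, of which 95 had at least 10 reads in a library and were kept, out of 26397 genes with counts and 19926 with at least 10 reads in a library. The other 8 stayed under 10 reads in every library. The 95 genes were 7 A-type, 12 B-type and 11 D-type cyclins, 3 CDKA and 2 CDKB kinases, 1 CKS gene, 5 KRP inhibitors, 1 WEE1 gene, 5 E2F and RBR genes, 6 ORC and 8 MCM genes, 1 PCNA and 1 CDC45 gene, 3 Aurora kinases, 8 other CDC genes, 12 H2A genes and 9 H2B genes.

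The study compared fruit of the cultivar HG6-61 with fruit of Ailsa Craig (AC), both grown side by side in 1 greenhouse with no treatment named in the labels. Fruit was picked every 7 days from 7 to 49 days after flowering (DAF), and RNA was taken from pericarp pooled from 5 plants of each cultivar. The labels call 35 DAF mature green, 42 DAF breaker and 49 DAF ripening. Each cultivar and stage has 1 library, 14 in all, so a stage is replicated only by the 2 cultivars standing in for each other. The p-values over stages rest on the spread left in the 14 libraries after stage and a cultivar difference common to all stages were fitted.

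Young tomato fruit grows by cell division, and later by cell expansion in which pericarp cells go through endoreduplication, rounds of DNA synthesis without mitosis. CDKB kinases, B-type cyclins, Aurora kinases and CDC20 act in mitosis and are not needed for endoreduplication, whereas origin licensing by ORC and MCM, the sliding clamp PCNA and new histones are needed whenever DNA is copied. D-type cyclins promote entry into the cycle by way of RBR and E2F, and KRP proteins inhibit CDKs. These roles are known mainly from Arabidopsis, and a shared symbol does not show that the tomato gene has the same role.

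Counts per library ranged from 1461817 to 6274456 in HG6-61 and from 1854032 to 4277327 in AC. The HG6-61 library of 35 DAF was the smallest of the 14. By the read distribution in the paper, the 35 DAF library of each cultivar had that cultivar's lowest share of reads in coding sequence. It also had the highest share in untranslated regions downstream of it. The part of this in the levels at 35 DAF was not tested. Of the 95 genes, 1 in HG6-61 and 0 in AC had 0 reads at 7 DAF, while between 19 and 23 in HG6-61 and between 21 and 27 in AC had 0 reads at 35, 42 and 49 DAF. A count of 0 allows up to 3 reads, which was worth a median of between 0.399 and 1.71 RPKM (reads scaled to gene length and library size) over the 95 genes in 1 library. Seed genes, 28 by symbol (storage proteins and oleosins together with AGL62, FUS3, PER1 and CLO1), were at their highest share of counts at 28 DAF in HG6-61 (2.29%) and at 21 DAF in AC (3.08%) and at 0.00117% and 0.00264% at 7 DAF. Between 5 and 13 of these 28 genes had 0 reads in a library, and the part of seed RNA in the levels below was not tested. Psy1, the phytoene synthase gene of ripening fruit, had 42.2 RPKM at 35 DAF in HG6-61 and 3080 RPKM in AC, so at an equal age the cultivars were not at an equal stage of ripening.

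**Figure D1:**
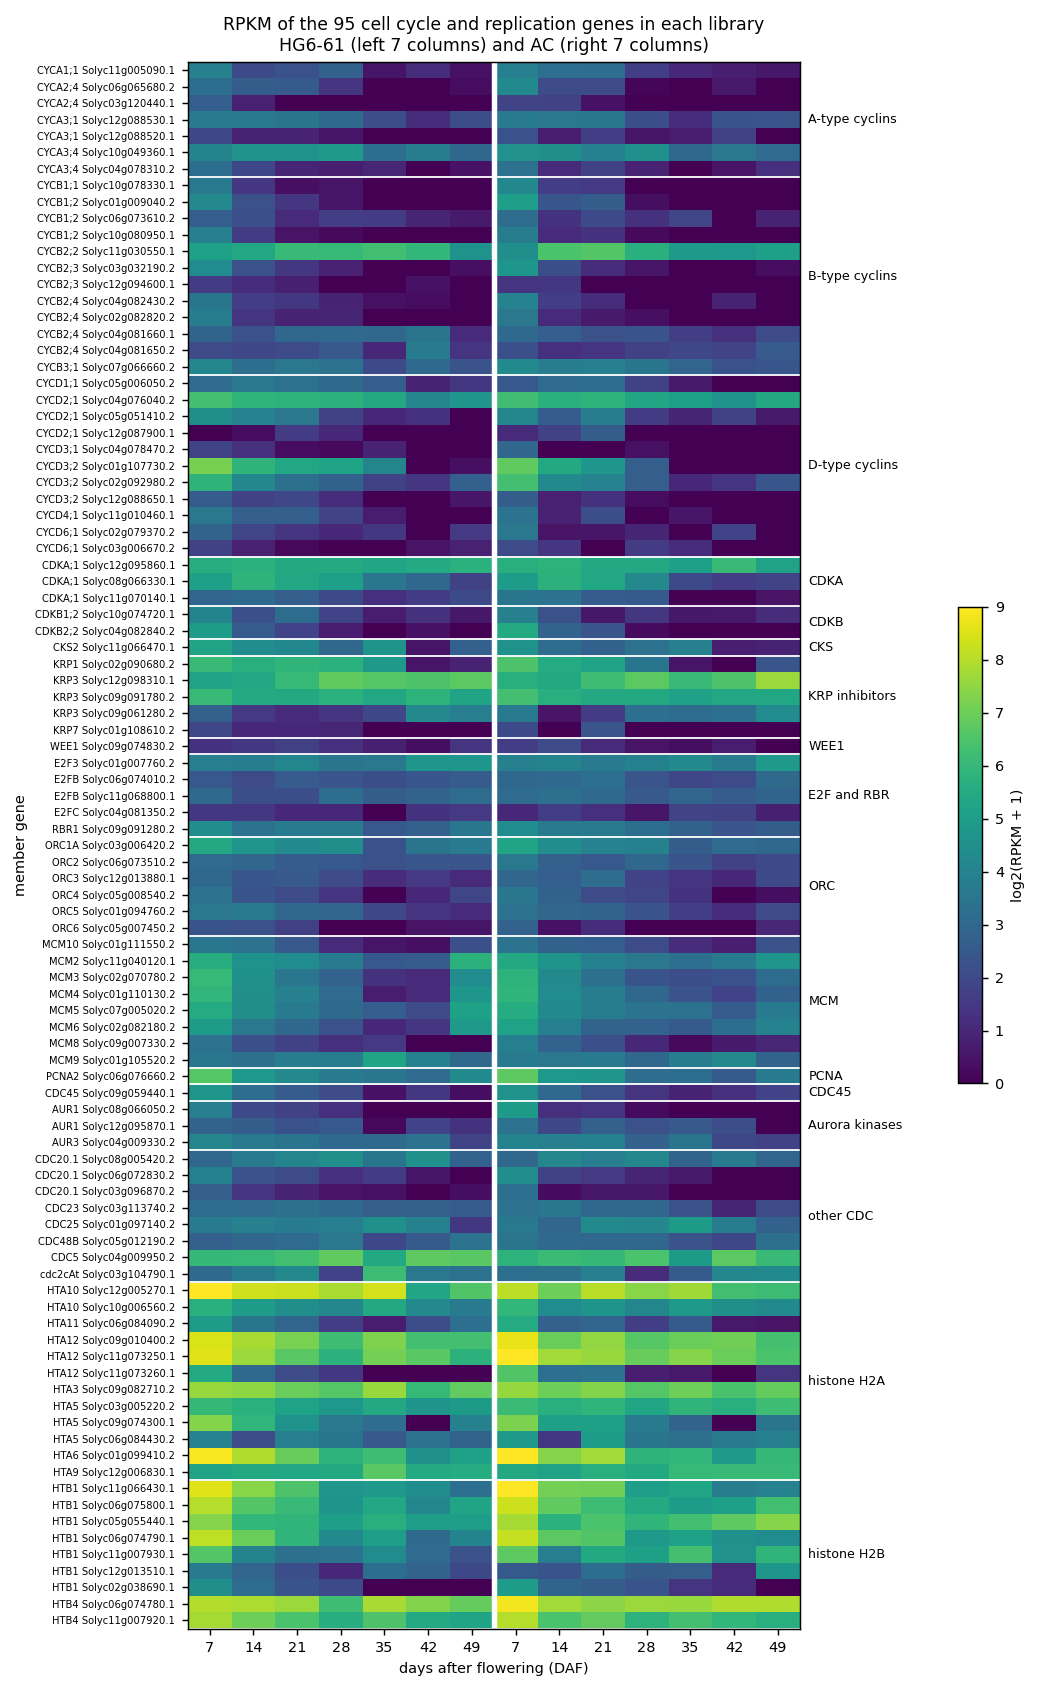
Level of each of the 95 genes in each of the 14 libraries, as log2(RPKM + 1) in colour, with 1 row per gene ordered by role group and 1 column per library in days after flowering, HG6-61 on the left and AC on the right. Most rows are brightest at 7 DAF (69 of 95 in HG6-61 and 69 of 95 in AC), and MCM2 to MCM6 brighten again at 49 DAF.

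Most of these genes were at their peak in the youngest fruit. Among the 89 genes with at least 10 reads in a library of each cultivar, 65 were highest at 7 DAF in HG6-61, against 27.7% of all genes, and 66 in AC, against 28.5% of all genes. Genes highest at 7 DAF in both cultivars were 61 of 89 (68.5%), where the share over all genes was 20.1%. To compare each later stage with 7 DAF, edgeR's quasi-likelihood test was run on the counts of all 18082 genes that passed a filter on low counts, with HG6-61 and AC together. Calls required a p below 0.01 after Benjamini-Hochberg adjustment over all of them together with an absolute log2 fold change above 2. In bulk RNA, fewer dividing cells and less RNA of a gene in each cell cannot be told apart. Of the 95 genes, 85 were tested, and 10 had too few reads. At 14 DAF edgeR called 0 genes lower or higher, where 0.382% of all genes were called lower and 0.293% higher. At an unadjusted p under 0.05, 38 were lower and 1 higher, where 16.1% of all genes passed in either direction. DESeq2 called 3 lower.

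The calls grew with age. Of the 85 genes 8 were lower at 21 DAF (1.63% of all genes tested) and 26 at 28 DAF (4.76%). The later stages had 33 at 35 DAF (8.33%), 35 at 42 DAF (13.1%) and 29 at 49 DAF (13.8%). Only 1 gene, KRP3 Solyc12g098310.1, was called higher, at 49 DAF (8.83% of all genes), while at 21, 28, 35 and 42 DAF 0 were, where 2.7%, 5.08%, 6.89% and 7.88% of all genes were called higher. The median log2 fold change over the 85 genes at the 6 later stages, from 14 to 49 DAF, was -1.13, -1.30, -2.11, -2.15, -2.61 and -2.10, also with genes at 0 reads set to their bound, against medians over all genes between -0.18 and 0.02. In all 42 genes were called lower at 1 stage or more. The first call fell at 21 DAF for 8 of them, at 28 DAF for 18, and at 35, 42 or 49 DAF for 10, 5 and 1, and 18 were called at 28, 35, 42 and 49 DAF alike. The 2 libraries of 7 DAF entered each of these comparisons. Without the AC library of 28 DAF 9 genes were called at 28 DAF, and at 21 DAF 0 were called without either 7 DAF library or without the HG6-61 library of 21 DAF. The share of all genes called lower at 1 stage or more was not counted, and it is at least the 13.8% of 49 DAF. Counts of genes called lower in each role group below therefore have no such share beside them.

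Without a limit on the fold, at an adjusted p under 0.05 in edgeR, 7, 28 and 43 genes were lower at 14, 21 and 28 DAF, where 1.35%, 6.1% and 13.4% of all genes were, and 49, 57 and 51 genes at 35, 42 and 49 DAF, where 20.6%, 24.8% and 25.2% of all genes were. Higher by this rule were 0, 0, 2, 4, 3 and 3 genes from 14 to 49 DAF, where the shares over all genes were 1.39%, 8.43%, 14.3%, 17.2%, 19.1% and 20%. From 1 stage to the next, edgeR called 0 of the 85 genes in each of the 5 steps from 14 to 49 DAF. Over all genes 0.00553% were called lower and 0.393% higher at 21 over 14 DAF, 0% and 0% at 28 over 21 DAF, 0.0221% and 0% at 35 over 28 DAF, 0.243% and 0.221% at 42 over 35 DAF, and 0.138% and 0.293% at 49 over 42 DAF. At an unadjusted p under 0.05 the 5 steps had 0, 16, 13, 13 and 5 genes lower and 1, 0, 11, 3 and 14 higher. Over all genes 8.29%, 9.59%, 27.8%, 27.3% and 22.0% passed that limit in either direction. In the last 3 steps the 85 genes were thus near or below the shares of all genes. DESeq2 called 1, 0, 1, 3 and 5, and its calls over all genes were not counted. At an adjusted p under 0.05 there were 1 higher at 21 over 14 DAF (0.0608% of all genes lower and 1.09% higher), 4 lower and 3 higher at 35 over 28 DAF (4.78% and 3.27%), 5 lower and 1 higher at 42 over 35 DAF (4.8% and 4.05%), and 5 higher at 49 over 42 DAF (2% lower and 2.52% higher).

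**Figure D2:**
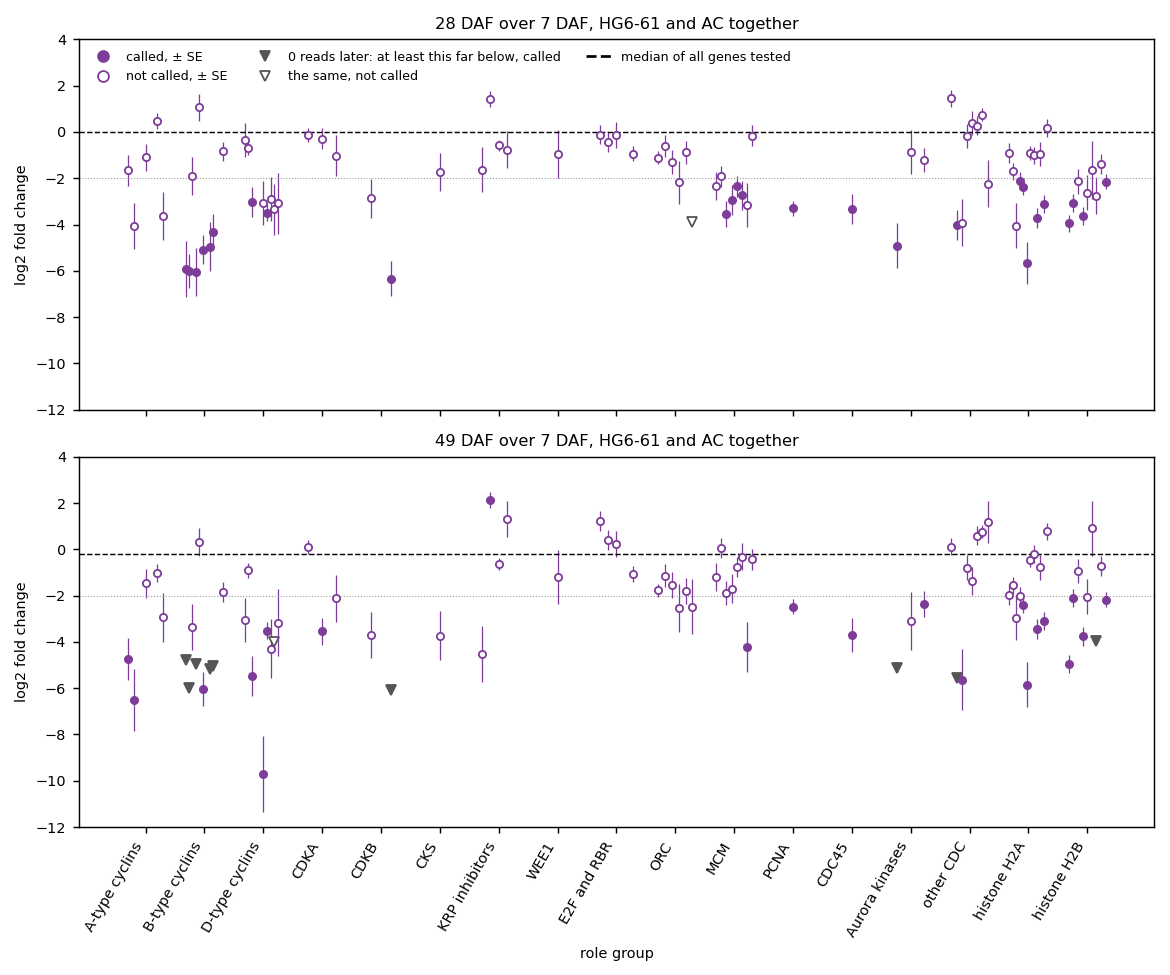
Log2 fold change of 28 DAF (upper panel) and 49 DAF (lower panel) over 7 DAF for the 85 genes tested, by role group, HG6-61 and AC together (edgeR, points with SE bars, filled where called). Grey triangles mark genes with 0 reads in both later libraries, drawn at the smallest fall that 3 reads would leave. CDKB2;2 lies lowest at 28 DAF and 1 D-type cyclin at 49 DAF, no E2F gene is called, and 6 of the 8 MCM genes lie closer to the dashed median of all genes at 49 DAF than at 28 DAF.

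Of the 12 B-type cyclins, which pair with CDKs to drive mitosis, 9 were tested and 6 were called lower, and 5 of these 6 at 28, 35, 42 and 49 DAF alike. CYCB1;2 Solyc01g009040.2 had 17.8, 3.73, 1.66, 0.42, 0, 0 and 0 RPKM from 7 to 49 DAF in HG6-61, against 31.99, 4.32, 5.36, 0.26, 0, 0 and 0 RPKM in AC. It was highest at 7 DAF in both cultivars, low by 14 DAF, and without reads from 35 DAF on. Its log2 fold change at 28 DAF was -5.99 ± 0.74 (SE), adjusted p = 0.001. At 49 DAF its 236 reads of 7 DAF and 0 reads later put it at least 63.8-fold lower. CYCB1;1 Solyc10g078330.1, CYCB1;2 Solyc10g080950.1, CYCB2;3 Solyc03g032190.2 and the 2 CYCB2;4 genes Solyc04g082430.2 and Solyc02g082820.2 followed the same course, with between 10.4 and 25.4 RPKM at 7 DAF and at most 0.82 RPKM from 35 DAF on in either cultivar. All 6 of these cyclins had dropped to 25% of their peak or less by 14 DAF in HG6-61 and in AC.

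Other B-type cyclins were not called. CYCB2;2 Solyc11g030550.1 had 34.9, 39.9, 66.3, 64.9, 76.6, 61.03 and 23.8 RPKM in HG6-61, against 21.4, 87.4, 96.3, 51.3, 27.4, 26.6 and 32.8 RPKM in AC. Its level was highest in the middle stages, and it was called at 0 of 6 stages, with log2 fold changes between 0.31 and 1.52. This gene made up most of the B-type RPKM after 7 DAF, so the summed B-type level at 28 DAF was 59.5% of that at 7 DAF in HG6-61 and 40.3% in AC, but 22.5% and 12.6% without it, and 27.8% and 19.9% when reads scaled by TMM factors alone were summed in place of RPKM. CYCB3;1 Solyc07g066660.2 had 16.6, 8.58, 10.9, 9.15, 3.03, 7.38 and 3.98 RPKM in HG6-61, against 19.03, 13.01, 13.68, 10.3, 6.65, 3.77 and 4.28 RPKM in AC. Its log2 fold change at 49 DAF was -1.85 ± 0.43 (SE), adjusted p = 0.0051, within the fold limit. CYCB2;4 Solyc04g081650.2 and CYCB2;4 Solyc04g081660.1 had too few reads to test and reached 12.14 and 10.02 RPKM at 42 DAF in HG6-61, against 2.63 and 1.39 RPKM in AC, from 1 library each. By their reads and RPKM these 2 genes were 581 and 431 bases long and CYCB2;2 317 bases. The other B-type cyclins had between 1292 and 2473 bases, so 1 read weighed more in the RPKM of the short genes.

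The CDKB kinases, which are made in dividing plant cells around mitosis, fell with the B-type cyclins. CDKB2;2 Solyc04g082840.2 had 29.4, 4.94, 2.52, 0.61, 0, 0.37 and 0 RPKM in HG6-61, against 44.01, 6.22, 4.24, 0.19, 0, 0 and 0 RPKM in AC. It was low by 14 DAF in both cultivars and had almost no reads from 28 DAF on. It was called at 21 DAF (-3.46 ± 0.61 (SE), adjusted p = 0.0067), and at 49 DAF it was at least 67.6-fold lower, with 250 reads at 7 DAF and 0 later. CDKB1;2 Solyc10g074720.1 had 15.7, 3.60, 7.98, 2.48, 0.66, 1.45 and 0.49 RPKM in HG6-61, against 14.03, 3.71, 0.51, 1.73, 0.48, 0.55 and 1.21 RPKM in AC. It was called lower at 35 DAF alone (-4.2 ± 1.02 (SE), adjusted p = 0.0086). At 21 DAF HG6-61 still had 7.98 RPKM of it, against 0.51 RPKM in AC, from 1 library each.

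Aurora kinases and CDC20 genes, which act on spindle and anaphase, were divided. AUR1 Solyc08g066050.2 had 13.3, 3.05, 2.46, 1.35, 0, 0 and 0 RPKM in HG6-61, against 28.7, 1.29, 1.58, 0.19, 0, 0 and 0 RPKM in AC. After 28 DAF it had no reads in any library, and at 49 DAF it was at least 34.9-fold lower. AUR3 Solyc04g009330.2 had 16.3, 11.8, 10.1, 7.38, 7.58, 9.82 and 2.61 RPKM in HG6-61, against 15.5, 14.1, 14.6, 5.84, 10.1, 2.88 and 2.37 RPKM in AC. This kinase kept a moderate level until the last stages and was called lower at 49 DAF alone (-2.35 ± 0.57 (SE), adjusted p = 0.0067). That call was lost in a fit of the 4 libraries of 7 and 49 DAF alone (-2.34), in a fit of the 7, 14, 42 and 49 DAF libraries (-2.33), and when 10 of the 14 libraries were left out singly. Of 3 CDC20.1 genes, activators of the anaphase-promoting complex, Solyc06g072830.2 and Solyc03g096870.2 were called lower. CDC20.1 Solyc08g005420.2 had 7.25, 11.7, 16.3, 21.2, 10.2, 21.7 and 6.04 RPKM in HG6-61, against 6.94, 17.1, 13.3, 17.2, 6.46, 12.2 and 6.56 RPKM in AC. Its highest libraries were those of 28 and 42 DAF in HG6-61 and of 14 and 28 DAF in AC, and its log2 fold change at 28 DAF was 1.47 ± 0.37 (SE), adjusted p = 0.013.

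A-type cyclins, which act in S phase and G2, were called in 2 of 5 tested cases, CYCA1;1 Solyc11g005090.1 and CYCA2;4 Solyc06g065680.2. CYCA3;4 Solyc10g049360.1 had 15.3, 23.02, 23.8, 28.6, 8.60, 13.2 and 7.21 RPKM in HG6-61, against 22.3, 20.9, 14.5, 21.6, 6.95, 10.9 and 7.78 RPKM in AC. It stayed at 14.5 RPKM or more to 28 DAF and below that at the last 3 stages, with a log2 fold change at 49 DAF of -1.03 ± 0.38 (SE), adjusted p = 0.046. CYCA3;1 Solyc12g088530.1 had 12.2, 11.5, 10.1, 7.70, 3.40, 1.24 and 3.35 RPKM in HG6-61, against 12.1, 10.9, 10.5, 3.44, 1.25, 4.0 and 4.15 RPKM in AC. Its level held to 21 DAF in both cultivars, and it was called at 0 of 6 stages. The summed RPKM of the 7 A-type cyclins stood at 67.3% of the 7 DAF level at 28 DAF in HG6-61 and at 35.0% in AC, and at 20.0% and 12.1% at 35 DAF. Without CYCA3;4 Solyc10g049360.1, the one with the highest RPKM, the sum at 28 DAF was 31.8% of that at 7 DAF in HG6-61 and 11.7% in AC.

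D-type cyclins, which start the cycle in response to sugar and hormones, declined at different times, with 3 of 8 tested called lower. CYCD3;2 Solyc01g107730.2, the most abundant of them at 7 DAF, had 141, 56.95, 40.1, 36.5, 16.3, 0 and 0.28 RPKM in HG6-61, against 112, 42.7, 25.7, 5.55, 0, 0 and 0 RPKM in AC. In HG6-61 it remained above 16 RPKM to 35 DAF, where AC had no reads. Over both cultivars its log2 fold change was -4.47 ± 1.07 (SE), adjusted p = 0.0089 at 35 DAF, and with 1281 reads at 7 DAF and 0 at 42 DAF it was at least 291-fold lower at that stage. CYCD3;2 Solyc02g092980.2 had 56.2, 17.5, 9.04, 6.01, 2.31, 1.71 and 5.78 RPKM in HG6-61, against 78.4, 18.9, 14.7, 5.60, 1.0, 1.61 and 4.27 RPKM in AC. At 14 DAF its log2 fold change was -1.88 ± 0.34 (SE), adjusted p = 0.015, short of a call, and it was called from 21 DAF on. CYCD2;1 Solyc04g076040.2 had 78.2, 57.96, 55.7, 53.9, 41.9, 16.1 and 24.9 RPKM in HG6-61, against 74.6, 51.95, 56.05, 39.2, 32.8, 23.4 and 41.97 RPKM in AC. It was present in every library, and its log2 fold change at 42 DAF was -1.70 ± 0.35 (SE), adjusted p = 0.0027. CYCD2;1 Solyc05g051410.2 was the other D-type cyclin called lower, from 28 DAF on.

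**Figure D3:**
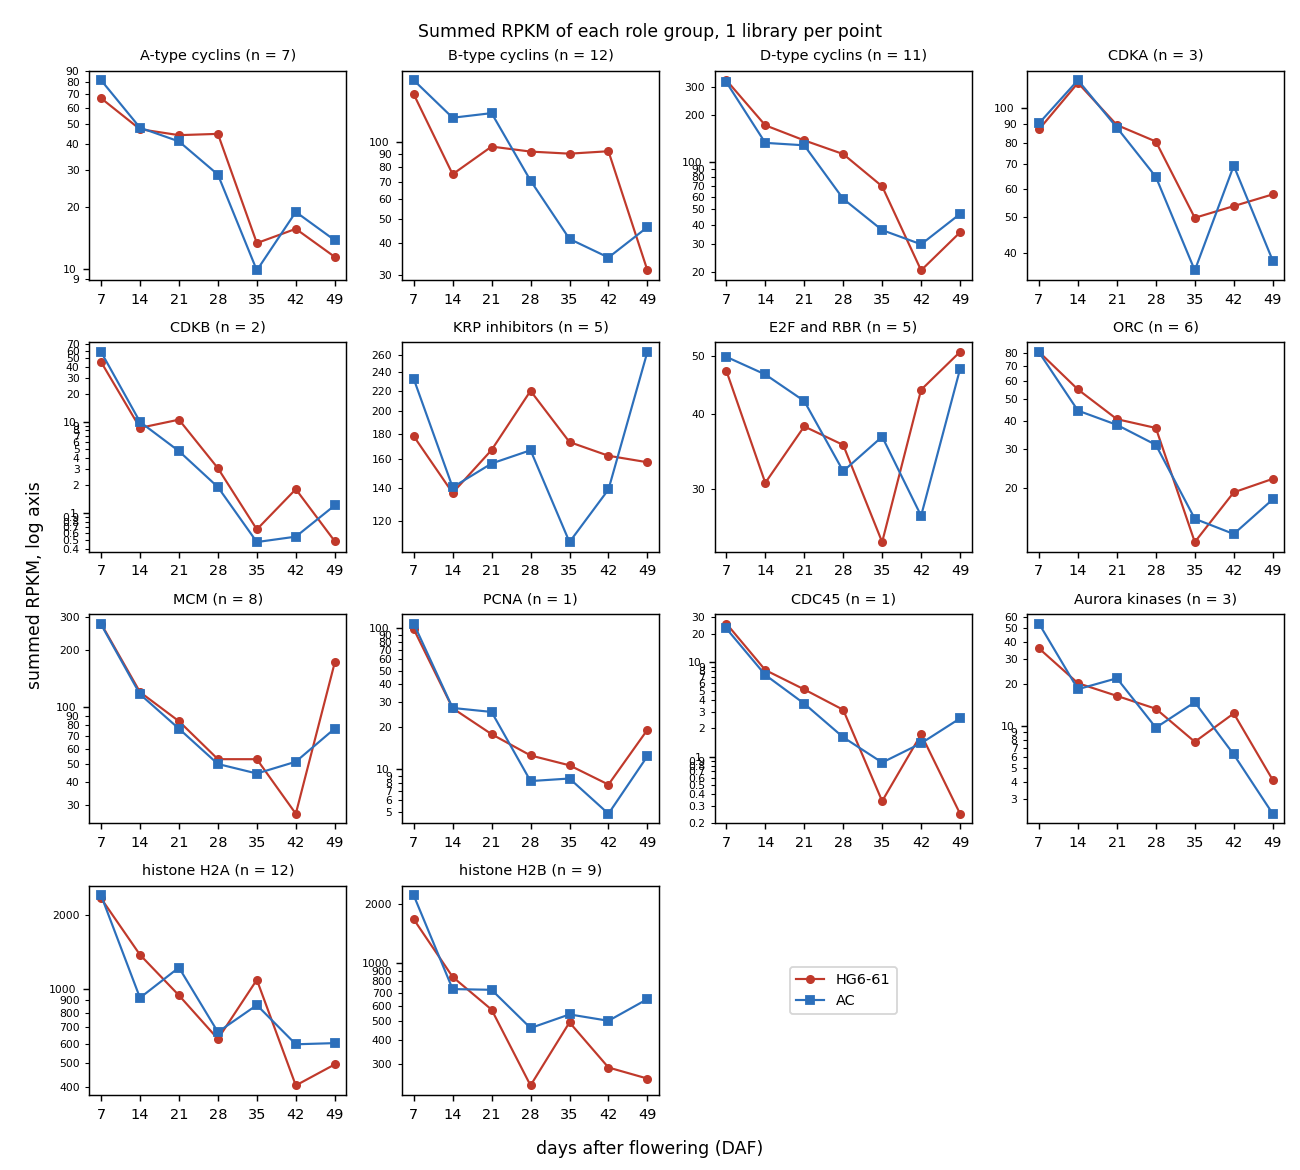
Summed RPKM of 14 role groups over days after flowering on log axes, with 1 point per library, HG6-61 as red circles and AC as blue squares. CDKB drops by 14 DAF in both cultivars, D-type cyclins at 28 and 35 DAF lie higher in HG6-61 (112.5 and 70.1) than in AC (58.4 and 36.9), and the MCM sum at 49 DAF reaches 172 RPKM in HG6-61 and 76.8 RPKM in AC.

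CDKA, the kinase that acts throughout the cycle, is represented by 3 genes. CDKA;1 Solyc12g095860.1 had 47.2, 52.5, 42.7, 44.5, 37.9, 44.4 and 52.4 RPKM in HG6-61, against 50.7, 55.7, 42.2, 41.7, 32.7, 67.2 and 35.05 RPKM in AC. Its log2 fold changes lay between -0.20 and 0.48 with no call at any stage. CDKA;1 Solyc08g066330.1 had 33.2, 57.01, 41.4, 33.2, 10.6, 7.25 and 2.36 RPKM in HG6-61, against 29.4, 53.5, 40.9, 18.04, 3.03, 2.07 and 2.61 RPKM in AC. It peaked at 14 DAF in both cultivars and was called lower at 35 DAF (-2.07 ± 0.51 (SE), adjusted p = 0.0089), 42 DAF and 49 DAF (-3.54 ± 0.58 (SE), adjusted p = 0.00069). CKS2 Solyc11g066470.1, a small subunit that docks CDKs to their substrates, had 34, 21, 25, 6, 9, 0 and 2 reads in HG6-61, against 10, 4, 2, 9, 14, 0 and 0 reads in AC. Its 44 reads at 7 DAF and 0 at 42 DAF put it at least 10-fold lower, the only stage at which it was called.

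Of the KRP inhibitors 1 of 4 tested was called lower and 1 higher. KRP3 Solyc12g098310.1 had 35.01, 40.6, 63.7, 111, 101, 88.8 and 106 RPKM in HG6-61, against 50.4, 43.4, 72.5, 105, 65.4, 89.2 and 198 RPKM in AC. It was higher from 21 DAF on than at 7 DAF in both cultivars, and it was called higher at 49 DAF, at 2.13 ± 0.35 (SE), adjusted p = 0.0007. The call was lost with library totals as the scaling (1.87), without the AC library of 49 DAF (1.66) and without the HG6-61 library of 7 DAF (1.97). KRP3 Solyc09g091780.2 had 68.1, 44.4, 43.3, 52.6, 41.1, 55.4 and 37.4 RPKM in HG6-61, against 78.8, 50.8, 42.5, 43.1, 34.9, 40.8 and 41.3 RPKM in AC. This gene kept between 34.9 and 78.8 RPKM throughout, and its log2 fold change at 49 DAF was -0.62 ± 0.25 (SE), adjusted p = 0.068. KRP1 Solyc02g090680.2 had 66.3, 48.8, 57.6, 53.3, 27.8, 0.41 and 0.83 RPKM in HG6-61, against 88.8, 45.7, 35.6, 10.3, 0.41, 0 and 4.19 RPKM in AC. It was nearly lost by 42 DAF in HG6-61 and by 35 DAF in AC, and it was called lower at 42 DAF (-8.26 ± 1.76 (SE), adjusted p = 0.0033). WEE1 Solyc09g074830.2, a kinase that inhibits CDKs, had at most 2.25 RPKM in HG6-61 and 3.14 RPKM in AC, and was called at 0 of 6 stages.

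E2F factors switch on genes of S phase. Of the E2F and RBR genes 0 of 4 tested were called at any stage in edgeR or in DESeq2, while at an unadjusted p under 0.05 RBR1 was lower at 5 of 6 stages and E2F3 higher at 49 DAF. E2F3 Solyc01g007760.2 had 13.3, 12.8, 16.5, 9.95, 11.04, 26.2 and 25.2 RPKM in HG6-61, against 14.1, 15.4, 12.3, 14.4, 18.7, 12.2 and 27.4 RPKM in AC. Its highest values were those of 42 and 49 DAF in HG6-61 and of 49 DAF in AC, with a log2 fold change of 1.23 ± 0.42 (SE), adjusted p = 0.032 at 49 DAF. RBR1 Solyc09g091280.2, the retinoblastoma protein that holds E2F inactive, had 20.2, 9.59, 12.1, 11.96, 4.60, 5.75 and 10.7 RPKM in HG6-61, against 19.6, 12.6, 12.4, 8.43, 6.02, 4.2 and 5.34 RPKM in AC. Every later library was below 7 DAF, and the log2 fold change was -1.73 ± 0.36 (SE), adjusted p = 0.0029 at 42 DAF, short of the fold limit. Both E2FB genes and E2FC lay between 0 and 8.97 RPKM in all libraries.

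Among the genes that copy DNA, PCNA2 Solyc06g076660.2, the sliding clamp of DNA polymerases, had 98.5, 27.01, 17.7, 12.5, 10.6, 7.76 and 19.0 RPKM in HG6-61, against 108, 27.1, 25.4, 8.22, 8.57, 4.82 and 12.3 RPKM in AC. At 14 DAF its log2 fold change was -1.94 ± 0.31 (SE), adjusted p = 0.0094, short of the fold limit, and it was called from 21 DAF on. CDC45 Solyc09g059440.1, which joins MCM to form the replicative helicase, had 25.6, 8.27, 5.16, 3.14, 0.34, 1.73 and 0.25 RPKM in HG6-61, against 22.8, 7.34, 3.65, 1.61, 0.87, 1.39 and 2.55 RPKM in AC. It was called lower from 28 DAF (-3.33 ± 0.66 (SE), adjusted p = 0.0045) to 49 DAF. Of the origin recognition genes, 2 of 6 were called lower. ORC1A Solyc03g006420.2 had 41.97, 24.8, 18.2, 20.96, 3.85, 10.1 and 12.4 RPKM in HG6-61, against 36.8, 20.1, 14.8, 14.6, 5.27, 7.79 and 7.31 RPKM in AC. Its level fell to 18.2 RPKM in HG6-61 and 14.8 RPKM in AC by 21 DAF and was still above 14 RPKM at 28 DAF. It was called at 35 DAF (-2.67 ± 0.31 (SE), adjusted p = 0.00016). ORC5 Solyc01g094760.2 had 10.97, 11.3, 6.97, 6.67, 2.75, 1.53 and 1.11 RPKM in HG6-61, against 9.23, 6.84, 6.21, 4.10, 2.08, 1.23 and 3.30 RPKM in AC, and was called at 42 DAF (-2.57 ± 0.59 (SE), adjusted p = 0.005). ORC2, ORC3, ORC4 and ORC6 were between 0 and 11.3 RPKM and were not called.

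Among the MCM genes, MCM2 to MCM6 encode subunits of the helicase loaded at origins, while MCM8, MCM9 and MCM10 are not part of it. MCM2 to MCM6 fell with PCNA2. Together with MCM10 they then stood higher at 49 than at 42 DAF in both cultivars, 6 of 8 cases, against 28 of all 95 genes. Of 8 MCM genes, 7 were called lower at some stage, the exception being MCM9 Solyc01g105520.2. MCM2 Solyc11g040120.1 had 47.4, 23.4, 19.7, 12.2, 4.54, 5.14 and 53.8 RPKM in HG6-61, against 42.2, 23.97, 14.5, 10.9, 8.66, 11.9 and 24.6 RPKM in AC. MCM4 Solyc01g110130.2 had 59.2, 20.9, 14.1, 7.75, 0.65, 1.11 and 25.4 RPKM in HG6-61, against 58.3, 19.1, 12.8, 7.09, 3.90, 2.48 and 5.97 RPKM in AC. Both were lowest at 35 or 42 DAF and higher again at 49 DAF, where the HG6-61 library was above the AC library. MCM6 Solyc02g082180.2 had 30.5, 10.97, 7.08, 3.84, 1.06, 1.71 and 27.6 RPKM in HG6-61, against 35.96, 13.8, 6.24, 6.18, 4.81, 8.58 and 15.03 RPKM in AC. MCM10 Solyc01g111550.2, which helps to start replication forks, had 10.7, 9.24, 4.73, 1.09, 0.41, 0.30 and 3.62 RPKM in HG6-61, against 9.77, 5.89, 5.48, 3.21, 1.19, 0.67 and 3.90 RPKM in AC. All 4 had their lowest levels at 35 or 42 DAF in HG6-61 and were higher at 49 DAF, while in AC MCM2 and MCM6 were already higher at 42 than at 35 DAF. Against 7 DAF, MCM2 was called at 35 and 42 DAF but had a log2 fold change of 0.06 ± 0.45 (SE), adjusted p = 0.93 at 49 DAF, and MCM4 was called at 28, 35 and 42 DAF but had -1.70 ± 0.62 (SE), adjusted p = 0.044 at 49 DAF. Without the HG6-61 library of 49 DAF the value of MCM2 at that stage was -0.52.

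Between 42 and 49 DAF the RPKM of MCM2, MCM3, MCM4, MCM5 and MCM6 changed by 10.5, 17.6, 22.9, 10.8 and 16.1-fold upwards in HG6-61, against 2.07, 2.11, 2.41, 2.30 and 1.75-fold in AC, from 1 library each and with no test. At 49 DAF MCM2 stood at 114% of its 7 DAF level in HG6-61 and at 58.3% in AC, and MCM6 at 90.6% and 41.8%. Over both cultivars the step of 49 over 42 DAF was 2.43 ± 0.49 (SE), adjusted p = 0.024 in log2 for MCM5 Solyc07g005020.2, 2.18 ± 0.49 (SE), adjusted p = 0.034 for MCM2, 3.11 ± 0.75 (SE), adjusted p = 0.042 for MCM4 and 2.47 ± 0.60 (SE), adjusted p = 0.043 for MCM3 Solyc02g070780.2. Of these 4 genes 0 passed the limit of 0.01 in edgeR, whereas DESeq2 called all 4. The 1 other gene that DESeq2 called higher in this step was the histone gene HTA5 Solyc09g074300.1, with 13 reads at 49 DAF and 0 at 42 DAF in HG6-61, against 12 and 0 reads in AC, and it had the lowest adjusted p of the 85 genes in edgeR (0.012). PCNA2 also was higher at 49 than at 42 DAF in both cultivars (1.32 ± 0.36 (SE), adjusted p = 0.061). Of the mitotic genes 0 of 3 Aurora kinases were higher at 49 than at 42 DAF in either cultivar, 0 of 2 CDKB genes in HG6-61 and 1 of 2 in AC, and 1 of 12 B-type cyclins in HG6-61 and 6 of 12 in AC. Of all 95 genes 44 were higher in HG6-61 and 51 in AC, and the share over all genes was not counted. Mitotic genes such as AUR1 Solyc08g066050.2, CYCB1;1 and CYCB1;2 Solyc01g009040.2 had 0 reads at both stages. These counts therefore do not set the mitotic genes apart from the MCM genes. Seed genes held 0.0976% and 0.0771% of counts at 42 and 49 DAF in HG6-61, against 0.108% and 0.104% in AC, and their part in the MCM levels was not tested. The MCM9 gene had 10.5, 8.94, 13.04, 12.9, 37.2, 14.5 and 7.67 RPKM in HG6-61, against 12.4, 10.8, 12.2, 7.32, 12.7, 17.96 and 6.33 RPKM in AC, highest at 35 DAF in HG6-61 and at 42 DAF in AC.

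Histones H2A and H2B were the most abundant of the 95 genes, with summed H2A levels at 7 DAF of 2334 RPKM in HG6-61 and 2402 RPKM in AC. Of 12 H2A genes 6 were called lower, and of 9 H2B genes 5. HTA6 Solyc01g099410.2 had 481, 242, 119.5, 56.1, 73.2, 22.1 and 34.6 RPKM in HG6-61, against 523, 165, 212, 56.8, 61.2, 27.7 and 63.5 RPKM in AC. It was called from 28 DAF (-3.12 ± 0.38 (SE), adjusted p = 0.00033) on. HTA12 Solyc09g010400.2 had 355, 226, 145, 72.3, 152, 79.2 and 79.3 RPKM in HG6-61, against 414, 126, 183, 101, 125, 132 and 79.9 RPKM in AC. It was lowest at 28 DAF in HG6-61 and at 49 DAF in AC, and 28 DAF was the only stage at which it was called (-2.11 ± 0.37 (SE), adjusted p = 0.0022). HTB1 Solyc11g066430.1 had 374, 166, 89.5, 25.3, 27.5, 20.2 and 8.80 RPKM in HG6-61, against 528, 139, 130.1, 31.6, 38.5, 12.6 and 15.01 RPKM in AC. It was called at 21 DAF (-2.05 ± 0.33 (SE), adjusted p = 0.0028) and at each later stage. HTB4 Solyc06g074780.1 had 248, 239, 198, 72.5, 227, 155 and 115 RPKM in HG6-61, against 463, 214, 174, 199.6, 195, 241 and 243 RPKM in AC. It was called at 0 of 6 stages. HTA10 Solyc12g005270.1, the H2A gene with the most RPKM in HG6-61 at 7 DAF, had 520.3, 323, 311, 233, 333, 37.8 and 94.2 RPKM in HG6-61, against 276, 129, 261, 168, 211, 76.4 and 71.7 RPKM in AC. It was called lower at 42 DAF alone (-2.40 ± 0.47 (SE), adjusted p = 0.002).

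In Arabidopsis HTA9 and HTA11 are H2A.Z genes, HTA3 and HTA5 are H2A.X genes and HTA6 and HTA12 are H2A.W genes. HTA9 Solyc12g006830.1 stayed between 35.0 and 103 RPKM and HTA3 Solyc09g082710.2 between 63.5 and 194 RPKM, with 0 calls for either. HTA11 Solyc06g084090.2 had 30.01, 10.4, 6.60, 2.12, 0.65, 3.35 and 8.77 RPKM in HG6-61, against 45.2, 5.71, 6.57, 2.22, 4.80, 0.54 and 0.38 RPKM in AC. Its log2 fold change at 28 DAF was -4.05 ± 0.98 (SE), adjusted p = 0.011, short of a call. HTA5 Solyc09g074300.1 had 158, 59.7, 23.8, 11.1, 8.35, 0 and 14.7 RPKM in HG6-61, against 148, 33.3, 33.4, 12.1, 6.35, 0 and 9.90 RPKM in AC. With 407 reads at 7 DAF and 0 at 42 DAF it was at least 92.5-fold lower at that stage, and it had reads again at 49 DAF in both cultivars. The gene HTA5 Solyc03g005220.2 had between 24.25 and 72.6 RPKM and was not called. Reads that mapped to several places had been removed before counting, so levels of near-identical histone copies are uncertain. At 35 DAF the summed level of H2A was above that of 28 DAF in both cultivars (46.6% and 26.8% of 7 DAF in HG6-61, 35.8% and 27.8% in AC), and so was that of H2B. The part of the different read distribution of the 35 DAF libraries in this was not tested.

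Of the other CDC genes, 2 of 8 were called lower, both of them CDC20.1 genes. CDC5 Solyc04g009950.2, an MYB-like protein of the spliceosome, had 63.2, 64.6, 75.9, 109, 42.8, 107 and 103 RPKM in HG6-61, against 55.6, 69.8, 63.4, 85.5, 28.9, 105 and 65.9 RPKM in AC. It was lowest at 35 DAF in both cultivars and was called at 0 of 6 stages, with a log2 fold change of 1.13 ± 0.27 (SE), adjusted p = 0.0069 at 42 DAF. CDC23 Solyc03g113740.2, a subunit of the anaphase-promoting complex, lay between 5.01 and 9.08 RPKM in HG6-61 and between 0.92 and 10.7 RPKM in AC.

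The stage of switch-off was then read in each cultivar as the earliest stage from which a gene stayed at or under 25% of its own highest RPKM, over the 89 genes with enough reads in both. By 14 DAF 10 genes (11.2%) were off in HG6-61, where the share over all genes was 2.19%, and 19 (21.3%) in AC, where it was 2.85%. By 21 DAF 21 genes were off in HG6-61 (4.3% of all genes) and 27 in AC (5.35%). By 28 DAF 29 genes were off in HG6-61 (7.53% of all genes) and 38 in AC (11.6%). By 35 DAF 34 were off in HG6-61 (13.6%) and 43 in AC (20.8%), and by 42 DAF 44 in HG6-61 (22.3%) and 50 in AC (27.1%). By 49 DAF the count was 53 in each cultivar (32.2% of all genes in HG6-61 and 36% in AC), and 36 genes in each were never off (67.8% and 64%). A cultivar has 1 library per stage, so these counts have no test. Among the 38 genes with at least 100 reads in a library of each cultivar 3 were off by 14 DAF in HG6-61 and 4 in AC. The share over all genes at this depth was not counted.

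**Figure D4:**
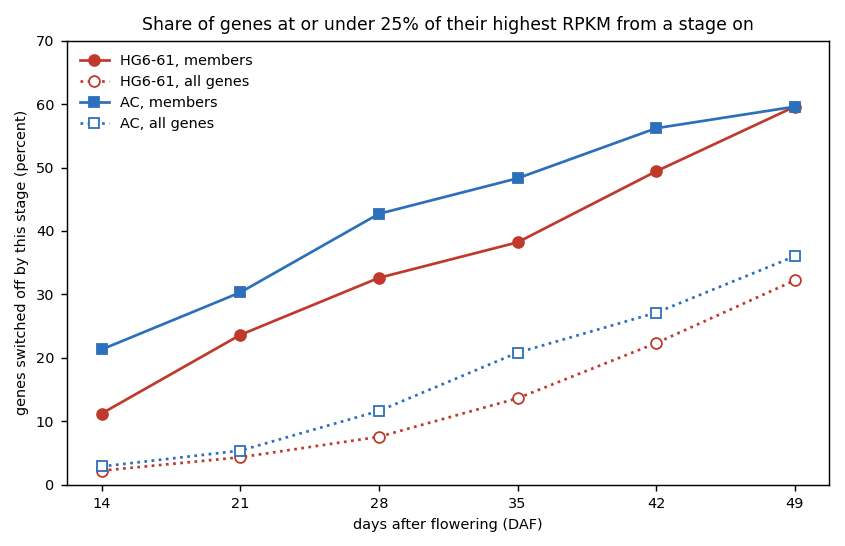
Percent of genes at or under 25% of their own highest RPKM from a stage on, by days after flowering, for the 89 cell cycle and replication genes (solid lines) and for all genes with enough reads (dotted lines), HG6-61 in red and AC in blue. The solid lines lie above the dotted lines at every stage, and HG6-61 lies below AC from 14 DAF (11.2% against 21.3%) to 42 DAF (49.4% against 56.2%) and meets it at 49 DAF (59.6%).

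Gene by gene, 27 of 89 genes (30.3%) were off later in HG6-61, 49 (55.1%) at the same stage or in neither cultivar, and 13 (14.6%) later in AC. Over all genes the shares were 22.4%, 67.7% and 9.87%. Genes off later in HG6-61 thus outnumbered those off later in AC over all genes as well. Of the 11 D-type cyclins 7 were off later in HG6-61 and 0 later in AC, but some of the 7 rested on few HG6-61 reads. CYCD3;1 Solyc04g078470.2 counted as on at 35 DAF from 1 read, and CYCD2;1 Solyc12g087900.1 at 28 DAF from 3 reads. CYCD6;1 Solyc03g006670.2 and CYCD6;1 Solyc02g079370.2 counted as not off from 1 and 4 reads at 49 DAF. Of 12 B-type cyclins 8 were off at the same stage, 1 later in HG6-61 and 0 later in AC, and 3 had too few reads in AC. Among H2A genes 3 were later in HG6-61 and 4 later in AC, and among H2B genes 2 and 4. CYCD3;2 Solyc01g107730.2 was off from 35 DAF in HG6-61 and from 21 DAF in AC, KRP1 from 42 and 28 DAF, CDKB1;2 from 28 and 21 DAF, and CYCA2;4 Solyc06g065680.2 from 28 and 14 DAF. CDKB2;2, AUR1 Solyc08g066050.2 and 6 B-type cyclins were off from 14 DAF in both cultivars, and PCNA2 and CDC45 from 21 DAF in both. MCM3 and MCM4 were off from 21 DAF in AC and counted as not off in HG6-61, where they were above 25% of their peak again at 49 DAF.

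Measured as folds within a cultivar, 14 of 93 genes stood at 25% of their 7 DAF RPKM or less at 14 DAF in HG6-61 (3.96% of all genes), against 27 of 85 in AC (5.18%). At 21 DAF the counts were 30 of 95 in HG6-61 (6.34%) and 29 of 85 in AC (7.67%), and at 28 DAF 48 of 94 in HG6-61 (10.8%) and 43 of 85 in AC (11.9%). At 35 DAF they were 51 of 93 in HG6-61 (21.2%) and 48 of 86 in AC (21.4%), and at 42 DAF 60 of 94 in HG6-61 (24.1%) and 56 of 84 in AC (27.3%). At 49 DAF 55 of 93 in HG6-61 (25%) and 49 of 85 in AC (26.3%) did so. From 42 to 49 DAF 7 of 49 genes were at least 4-fold higher in HG6-61 (6.36% of all genes) and 4 of 52 in AC (9.48%), 6 of the 7 being MCM2 to MCM6 and MCM10.

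To ask whether the cultivars differed at a given age, HG6-61 was compared with AC in 3 windows of stages, 7 to 21, 28 to 35 and 42 to 49 DAF, with the stages of a window as replicates. In each of the 3 windows edgeR called 0 of the 85 genes. Over all genes tested 0.0166% were called lower and 0.00553% higher at 7 to 21 DAF, 0.271% and 0.0387% at 28 to 35 DAF, and 0.0277% and 0.0166% at 42 to 49 DAF. At an unadjusted p under 0.05 there were 1 lower and 1 higher at 7 to 21 DAF, 5 lower and 7 higher at 28 to 35 DAF, and 7 lower and 5 higher at 42 to 49 DAF. Over all genes 8.31%, 15.7% and 18.1% passed that limit in either direction, and the 85 genes did not exceed these shares. DESeq2 called 0, 3 and 1. At an adjusted p under 0.05 there were 0 at 7 to 21 DAF (0.16% of all genes lower and 0.0553% higher), 3 higher at 28 to 35 DAF (1.33% lower and 0.736% higher) and 1 lower at 42 to 49 DAF (0.713% lower and 0.503% higher).

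The 3 genes that DESeq2 called at 28 to 35 DAF were higher in HG6-61. They were CYCD3;2 Solyc01g107730.2, with a log2 fold change of HG6-61 over AC in edgeR of 3.61 ± 0.65 (SE), adjusted p = 0.029, KRP1 Solyc02g090680.2, with 3.30 ± 0.63 (SE), adjusted p = 0.029, and cdc2cAt Solyc03g104790.1, with 3.04 ± 0.59 (SE), adjusted p = 0.031. The cyclin had 36.5 and 16.3 RPKM at 28 and 35 DAF in HG6-61, against 5.55 and 0 RPKM in AC. KRP1 had 53.3 and 27.8 RPKM in HG6-61, against 10.3 and 0.41 RPKM in AC. The HG6-61 libraries were above the AC libraries of the same age at both stages. cdc2cAt had 7.67, 12.3, 18.1, 2.49, 70.6, 11.2 and 9.18 RPKM in HG6-61, against 8.74, 8.93, 13.5, 1.15, 4.86, 16.9 and 19.01 RPKM in AC, with the largest gap at 35 DAF.

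Whether these differences were larger at 28 to 35 DAF than at 7 to 21 DAF was tested in the same model. edgeR gave 3.17 ± 0.76 (SE), adjusted p = 0.21 for KRP1, 3.13 ± 0.77 (SE), adjusted p = 0.24 for the cyclin and 2.75 ± 0.70 (SE), adjusted p = 0.24 for cdc2cAt, none of them a call. It called 0 of the 85 genes, where 0.0111% of all genes were called lower and 0% higher. At an unadjusted p under 0.05, 1 was lower and 7 higher, where 8.75% of all genes passed in either direction. DESeq2 called KRP1 and the cyclin. The same contrast at 42 to 49 DAF gave 0 calls in edgeR (0% of all genes lower and 0% higher) and in DESeq2. At an unadjusted p under 0.05, 6 were lower and 4 higher, where 12.1% of all genes passed in either direction. In both contrasts the 85 genes were near the share of all genes. At 28 and 35 DAF Psy1 had 47.8 and 42.2 RPKM in HG6-61, against 352 and 3080 RPKM in AC, and seed genes held 2.29% and 0.745% of counts in HG6-61, against 2.95% and 0.510% in AC. Age and ripening stage of the cultivars cannot be told apart at these ages, and the part of either value in the differences of these genes was not tested.

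At 42 to 49 DAF the lowest adjusted p was that of HTB1 Solyc05g055440.1, a histone H2B gene, which was lower in HG6-61 (-2.21 ± 0.32 (SE), adjusted p = 0.018) and was the gene that DESeq2 called. It had 164, 61.3, 58.4, 31.8, 49.9, 31.1 and 32.0 RPKM in HG6-61, against 222, 52.5, 86.4, 58.9, 75.8, 107 and 162 RPKM in AC. From 21 DAF on the HG6-61 library was below the AC library at each stage.

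**Figure D5:**
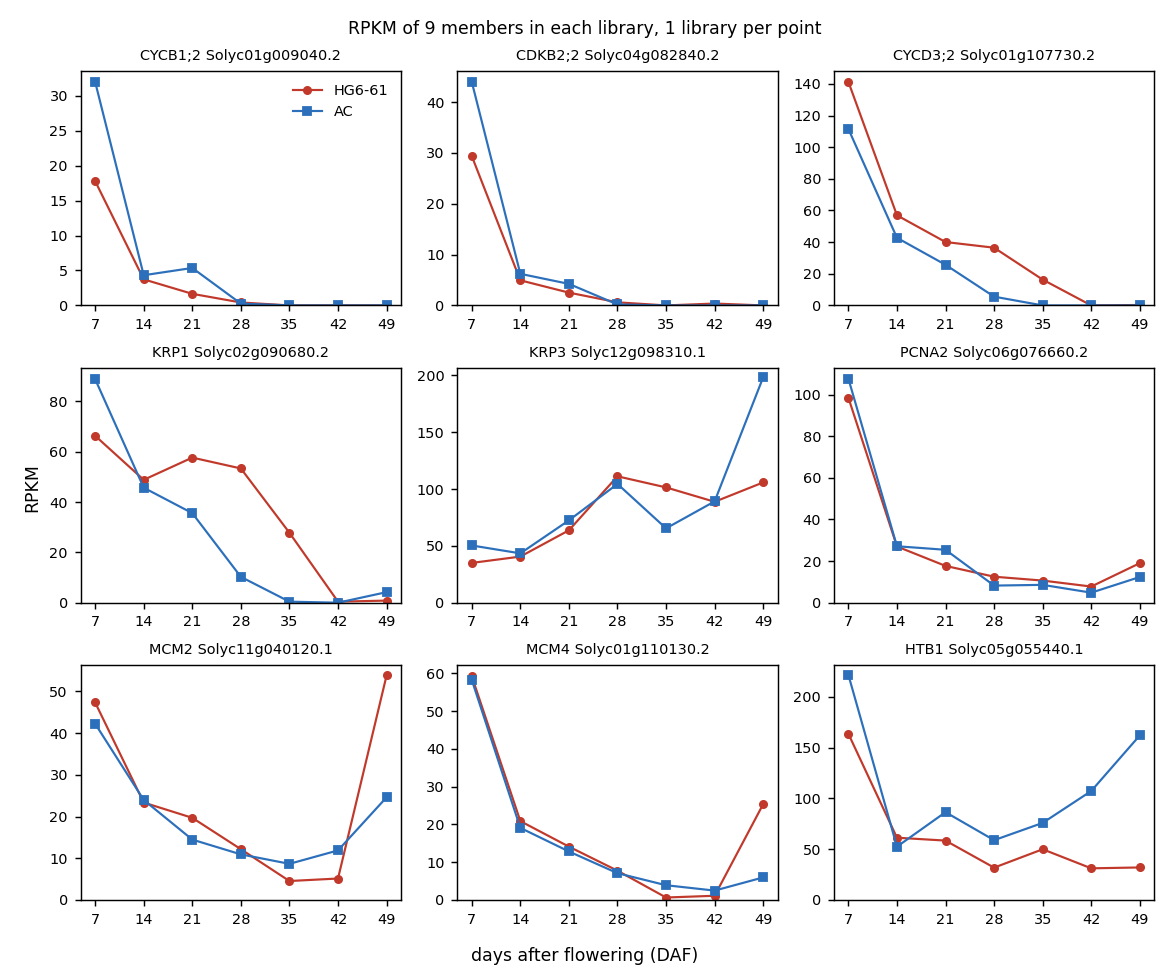
RPKM of 9 genes over days after flowering, 1 point per library, HG6-61 as red circles and AC as blue squares. The B-type cyclin and the CDKB kinase are low by 14 DAF in both cultivars, the D-type cyclin and KRP1 are higher in HG6-61 at 28 and 35 DAF (36.5 and 16.3 RPKM for the cyclin, against 5.55 and 0 RPKM in AC), and MCM2 and MCM4 are higher at 49 than at 42 DAF (53.8 and 25.4 RPKM in HG6-61, against 24.6 and 5.97 RPKM in AC).

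By single stages, with 1 library per cultivar and no test, 12 genes were at least 2-fold higher in HG6-61 at 14 DAF and 4 stood at 50% of AC or less, of 85 with enough reads (10.9% and 6.04% of all genes). The counts were 2 and 4 of 93 at 7 DAF (5.68% and 4.75%), 4 and 7 of 81 at 21 DAF (8.77% and 7.61%), and 9 and 6 of 67 at 28 DAF (10.2% and 10.1%). They were 7 and 9 of 57 at 35 DAF (16.3% and 14.1%), and 7 and 9 of 46 at 42 DAF (16.5% and 7.89%). At 49 DAF 5 were at least 2-fold higher, HTA11, MCM2, MCM3, MCM4 and MCM5, and 13 stood at 50% or less of 53 (19.1% and 16.3%), 5 of them H2B genes. At 42 DAF MCM2, MCM3, MCM4 and MCM6 had stood at 50% or less of AC, and all 4 were higher in HG6-61 than in AC at 49 DAF.

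Other genes of the same processes were followed by lists of Arabidopsis symbols. Of 47 genes of mitosis and cytokinesis 40 were tested, and 14 were lower at 28 DAF (35%, against 4.76% of all genes) and 25 at 49 DAF (62.5%, against 13.8%), with 0 higher (5.08% and 8.83% of all genes) and median log2 fold changes of -2.21 and -3.28. SYP111 Solyc06g053760.2, the cytokinesis syntaxin KNOLLE, had 67.9, 14.7, 4.85, 3.03, 0.95, 0.69 and 0 RPKM in HG6-61, against 97.95, 9.62, 6.75, 1.24, 0.69, 0.78 and 0 RPKM in AC. It was low from 14 DAF in both cultivars. PLE Solyc03g007130.2, a microtubule-bundling protein of the phragmoplast, had 37.9, 3.55, 2.08, 1.02, 0, 0 and 0 RPKM in HG6-61, against 26.1, 1.57, 0.78, 0.57, 0, 0 and 0 RPKM in AC, and had a log2 fold change at 28 DAF of -5.42 ± 0.51 (SE), adjusted p = 0.0003.

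Of 41 genes of DNA synthesis 36 were tested, and 6 were lower at 28 DAF (16.7%, against 4.76% of all genes) and 10 at 35 and at 42 DAF (27.8%, against 8.33% and 13.1%). At 49 DAF 5 were lower, a share (13.9%) like that of all genes (13.8%), with medians of -0.79 at 28 DAF and -1.01 at 49 DAF. The symbols also brought in ATR2, which is not a gene of DNA synthesis, and CAF1 and EOL1, whose role the symbols alone do not settle. TSO2 Solyc02g094160.1, a small subunit of ribonucleotide reductase, had 152, 62.2, 38.7, 16.98, 7.31, 4.91 and 17.7 RPKM in HG6-61, against 154, 68.7, 33.6, 14.3, 7.51, 14.1 and 7.79 RPKM in AC. It was lower at every later stage in both cultivars, with a log2 fold change of -3.26 ± 0.44 (SE), adjusted p = 0.00058 at 28 DAF. Topoisomerase II, TOPII Solyc01g087500.2, had 44.4, 5.69, 3.73, 1.13, 0.13, 0 and 0 RPKM in HG6-61, against 38.5, 3.96, 3.16, 0.34, 0, 0 and 0 RPKM in AC, and was low by 14 DAF in both cultivars.

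Of 35 genes of the endocycle and the anaphase-promoting complex 28 were tested, with 1 lower and 2 higher at 28 DAF (3.57% and 7.14%, against 4.76% and 5.08% of all genes), 3 lower and 2 higher at 49 DAF (10.7% and 7.14%, against 13.8% and 8.83%), and medians of -0.07 and 0.09. These shares are near those of all genes. The symbols sought for this list included DPA and DPB, and they also brought in DPBF3 genes and DPB2, which are neither. The shares and medians therefore do not describe endocycle genes alone. FZR2 Solyc08g080080.2, in Arabidopsis an activator of the anaphase-promoting complex that promotes endoreduplication, had 9.87, 9.39, 6.30, 6.71, 4.06, 8.91 and 8.81 RPKM in HG6-61, against 10.4, 10.3, 10.4, 3.57, 7.56, 5.30 and 5.48 RPKM in AC. Its log2 fold change at 49 DAF was -0.26 ± 0.49 (SE), adjusted p = 0.69, not a call. FZR3 Solyc06g043150.2, of the same family, had 13.72, 1.56, 1.72, 0, 0.34, 0 and 0 RPKM in HG6-61, against 13.4, 1.27, 1.05, 0.26, 0, 0 and 0 RPKM in AC, and was lower (-6.37 ± 1.06 (SE), adjusted p = 0.0028 at 28 DAF). The 2 genes that were higher were CDKF;1 Solyc12g007200.1, a kinase that activates other CDKs (2.04 ± 0.33 (SE), adjusted p = 0.0016 at 28 DAF), and GEM Solyc11g010440.1 (2.76 ± 0.44 (SE), adjusted p = 0.0014 at 28 DAF). Of 9 genes listed for histones H1, H3 and H4 6 were tested, and these included genes that are not histones. HIS1-3 Solyc02g084240.2, a linker histone induced by drought in Arabidopsis, had 43.7, 84.9, 80.1, 89.99, 444, 426 and 348 RPKM in HG6-61, against 45.4, 67.8, 122, 135, 380.2, 515 and 646 RPKM in AC, and was higher at 49 DAF (3.73 ± 0.39 (SE), adjusted p = 6.1e-05).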

How the data were processed

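RNA of fruit pericarp was read on an Illumina Genome Analyzer IIx. Adaptors, low-quality reads and short reads were removed, the rest was mapped to the SL2.40 genome with TopHat (at most 2 mismatches), and reads that fit several places were discarded. The deposited counts give uniquely mapped reads per gene as whole numbers. RPKM, also computed and deposited by the authors, scales reads to gene length and library size. It is not an exact rescaling of these counts. CKS2 has RPKM above 0 in 3 libraries with 0 reads, so its reads were given, AUR1 Solyc12g095870.1 has in 1, and RPKM per read, corrected for library total, differed by up to 1.148 times between libraries within a gene. Levels, sums, switch-off stages and folds within a cultivar rest on RPKM, and tests on counts. Reads carry no molecular identifiers, so limits for 0 reads cover counting error only.

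The 95 genes and all lists were chosen with earlier results of these data known. Groups came from the labels (days after flowering and cultivar). A developmental stage label of mature green on young fruit was not used. The counts of all genes were fitted with edgeR 4.0.16 in R 4.3.3 (TMM factors, filterByExpr, quasi-likelihood test), with stage and cultivar as terms, or with stage and a cultivar difference for each window. SEs were derived from the fold change and its F value. Dispersion was shared over all 14 libraries, which left 6 residual degrees of freedom (4 with windows). A fold against 0 reads was given as a bound at 3 reads over both libraries. Genes named by rule were the 2 with the most reads in a role group and at least 100 reads, and the 3 largest falls and rises among calls at 49 DAF. Other genes, among them MCM6, MCM10 and HTA10 Solyc12g005270.1, were named after their values were seen. Alternatives were other scalings, DESeq2 1.42.0, no filter, other call rules, fits of the compared libraries alone, and single libraries left out. Libraries of 1 cultivar at different stages are paired by cultivar only, which was a term of the fit. Sequences, promoters and gene positions were not used here.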

Additional observations from a re-analysis of the deposited data

How the results depend on the processing

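Of the values set against alternatives, 640 counts kept within 1.5 times and 119 did not. Of the single-gene values and summed levels together 601 stayed the same, which for a single gene means that direction and side were kept. Among the single-gene values 15 gained and 22 lost a call, and 10 reversed. The sums of A- and B-type cyclins at 28 DAF moved in 6 cases. The cause of these changes was not tested. Scaling by library totals moved the median log2 fold change of all genes by -0.29 at 35 against 7 DAF and by -0.24 at 42 and 49 against 7 DAF. It gave 0 of the 95 genes higher at 49 DAF, 1 endocycle gene higher at 28 DAF (also with DESeq2 size factors) and 0 at 49 DAF. It reversed the 49 against 7 DAF values of CDKA;1 Solyc12g095860.1 (-0.14), MCM2 (-0.18) and CDC20.1 Solyc08g005420.2 (-0.13). The model with no replicate block, that is no cultivar term, called 0, 6, 22, 29, 33 and 29 genes lower from 14 to 49 DAF and 1 higher at 49 DAF, and changed no count beyond 1.5 times. DESeq2 called 3 genes lower at 14 DAF and 17 at 21 DAF, 1, 1, 3 and 5 in the steps to 21, 35, 42 and 49 DAF, and 3, 1 and 2 in the cultivar windows of 28 to 35 DAF, 42 to 49 DAF and the difference of 28 to 35 from 7 to 21 DAF, with 2 endocycle genes lower and 1 higher at 28 DAF. Without a fold limit, at an adjusted p under 0.05, there were 7, 28, 43, 57 and 51 genes lower at 14, 21, 28, 42 and 49 DAF, 2, 4, 3 and 3 higher from 28 to 49 DAF, 1, 7, 6 and 5 called in the steps to 21, 35, 42 and 49 DAF, and 3 and 1 in the windows of 28 to 35 and 42 to 49 DAF. That rule called 27 mitosis genes lower at 28 DAF, 2 endocycle genes lower and 4 higher at 28 DAF and 7 higher at 49 DAF, and 12 DNA synthesis genes lower at 28 DAF and 16 lower and 3 higher at 49 DAF. The 4 libraries of a pair of stages alone gave 14, 26 and 41 genes lower at 14, 21 and 28 DAF, 2 endocycle genes lower at 28 DAF, 1 lower and 1 higher at 49 DAF, and -0.0041 for MCM2 at 49 DAF. Without a filter on low counts 1, 1 and 2 genes were called in the steps to 35, 42 and 49 DAF, and 3, 2 and 2 in the same windows and difference.

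Leaving out 1 library at a time gave between 0 and 12 genes lower at 21 DAF, 9 and 30 at 28 DAF, 14 and 31 at 35 DAF, 16 and 38 at 42 DAF and 17 and 30 at 49 DAF, and between 0 and 2 higher at 35 DAF and 0 and 1 at 49 DAF. Counts dropped by over 1.5 times without AC 7 DAF at each of these stages (0, 10, 14, 18 and 17), without HG6-61 7 DAF at 21, 28, 35 and 42 DAF (0, 11, 18 and 20), and without a library of the stage itself, namely HG6-61 21 DAF (0), AC 21 DAF (1), HG6-61 28 DAF (14), AC 28 DAF (9), AC 35 DAF (16), HG6-61 42 DAF (16), AC 42 DAF (21) and AC 49 DAF (19). Calls at 49 DAF were lost for KRP3 Solyc12g098310.1 without HG6-61 7 DAF or AC 49 DAF, CDC45 without either 7 DAF library, CYCD3;2 Solyc01g107730.2 without either 49 DAF library, and AUR1 Solyc08g066050.2 without either 49 DAF library or AC 7 DAF. Each of the steps to 35 and 42 DAF ranged between 0 and 1, the windows of 28 to 35 and 42 to 49 DAF between 0 and 3 and between 0 and 1, and the difference of 28 to 35 DAF between 0 and 1. Lower mitosis genes ranged between 4 and 16 at 28 DAF and 13 and 25 at 49 DAF, endocycle genes between 0 and 2 lower and 0 and 2 higher at 28 DAF and 0 and 3 lower and 0 and 2 higher at 49 DAF, and DNA synthesis genes between 2 and 6 at 28 DAF and 4 and 6 at 49 DAF. At 49 against 7 DAF 4 log2 fold changes crossed 0. CYCB2;2 ranged between -0.047 (without AC 49 DAF) and 0.80 and was -0.0046 without AC 7 DAF, CDKA;1 Solyc12g095860.1 ranged between -0.082 (without HG6-61 49 DAF) and 0.47, MCM2 between -0.52 (without HG6-61 49 DAF) and 0.66 and was -0.08 without AC 7 DAF, and CDC20.1 Solyc08g005420.2 between -0.028 (without AC 49 DAF) and 0.46.

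A limit of 10% of the highest RPKM put 0 genes off by 14 DAF in HG6-61 and 3 in AC, and 12 in HG6-61 and 21 in AC by 28 DAF. A limit of 50% put 31 off by 14 DAF in HG6-61 and 40 in AC, and 48 in HG6-61 by 28 DAF. Among genes with at least 100 reads 3 and 4 were off by 14 DAF, 10 and 13 by 28 DAF, with 10 off later in HG6-61, 22 at the same stage and 6 later in AC. Fits on the libraries of 7, 14, 42 and 49 DAF alone, and switch-off without the 35 or the 49 DAF libraries, were added after seeing the data and changed no count beyond 1.5 times. At 0 reads the depth does not separate a silent gene from one with up to 3 reads.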
